A study of Mus musculus with 10 samples.

Results

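The Tfap2 genes encode the AP-2 transcription factors, and all 5 family members (Tfap2a, Tfap2b, Tfap2c, Tfap2d and Tfap2e) were taken by gene symbol from a table of 55414 mouse genes. Polyadenylated RNA had been measured in gingival epithelium, the lining of the gum, loosened with Dispase and peeled off. There were 5 libraries from the palatal side of the gum, which faces the palate, and 5 from the buccal side, which faces the cheek. The labels used here give no strain, age, sex or microbial status. Nothing in them ties a library to its own animal, and p-values therefore rest on the spread among libraries alone, which may be technical. The family was chosen by its palatal and buccal counts, so its own differences between the sides are given as a description with no test.

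AP-2 proteins bind DNA as dimers and prefer a GC-rich palindrome, GCCNNNGGC. They act in the surface ectoderm that forms epidermis and oral epithelium, and in the neural crest that builds much of the face. Tfap2a and Tfap2c are known from keratinocytes, Tfap2b from neural crest, facial tissue and kidney, Tfap2e from the olfactory bulb, and Tfap2d from the midbrain and retina.

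Palatal libraries held 25868777 to 35583168 counts and buccal libraries 29317011 to 37234192. All 10 listed keratinocyte genes had counts, and the basal keratin gene Krt5 averaged 4302 CPM (counts scaled to a common library size) in palatal and 4500 CPM in buccal libraries. Most listed markers of other cells had counts too, so having counts does not tell tissues apart. It does not check the palatal and buccal labels either. Of 14062 genes tested with edgeR's quasi-likelihood test, 5474 (38.9%) passed a Benjamini-Hochberg adjusted p of 0.05. Of these, 2624 (18.7% of genes tested) were higher and 2850 (20.3%) lower in palatal epithelium. The difference is given throughout as a log2 fold change, palatal minus buccal, with its standard error.

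Palatal epithelium carried about 30.3 times as much Tfap2b transcript and 1.80 times as much Tfap2c transcript as buccal epithelium. Tfap2a was at a like level on both sides, Tfap2e was low on both, and Tfap2d was nearly absent. The samples are bulk RNA, so more cells that express a gene and more RNA per cell cannot be told apart. For 2 of the 5 members, Tfap2b and Tfap2c, all 5 palatal libraries lay above all 5 buccal libraries, as they did for 13.6% of all tested genes. Since that contrast entered the choice of the family, nothing is read from the count.

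The promoters of Tfap2b and Tfap2a are shown because these genes had similar palatal levels and very different buccal levels. They come from RefSeq on the build GRCm38.p6, whereas the submitters' processing notes name GRCm39. Each runs from 250 bases before to 50 bases after an annotated start. Capitals mark TAAT on either strand, the core that homeodomain factors bind, a motif picked after the sequences were read. Tfap2b lies at chr1:19211804-19212103 on the plus strand, and the first of 2 listed Tfap2a promoters at chr13:40734871-40735170 on the minus strand.
Tfap2b: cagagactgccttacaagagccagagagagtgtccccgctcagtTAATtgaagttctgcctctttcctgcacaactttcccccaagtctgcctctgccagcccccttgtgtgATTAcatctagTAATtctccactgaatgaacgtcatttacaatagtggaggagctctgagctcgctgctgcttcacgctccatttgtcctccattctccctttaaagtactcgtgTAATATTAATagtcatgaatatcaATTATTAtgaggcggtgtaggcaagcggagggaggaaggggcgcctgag
Tfap2a: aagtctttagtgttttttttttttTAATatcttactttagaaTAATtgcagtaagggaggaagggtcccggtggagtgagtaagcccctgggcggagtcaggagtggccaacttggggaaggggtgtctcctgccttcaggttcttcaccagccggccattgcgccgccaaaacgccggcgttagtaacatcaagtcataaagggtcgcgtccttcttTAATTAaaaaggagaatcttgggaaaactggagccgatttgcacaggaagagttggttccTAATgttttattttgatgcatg

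The Tfap2b promoter held 8 TAAT cores, counting overlaps, and 1.47% of the 32851 promoters in the table held as many or more. The Tfap2a promoter shown held 5, reached by 6.86% of promoters, and the other listed Tfap2a promoter held 3, reached by 20.0%. The single listed Tfap2e promoter held 1 core, and the listed Tfap2d promoters held 3, 3 and 1. G and C made up 48.3% of the Tfap2b promoter, 46.3% of the Tfap2a promoter shown and 61.0% of the other Tfap2a promoter. The median over all promoters was 52.7%, and the core counts were not adjusted for base composition. The AP-2 palindrome GCCNNNGGC, which reads the same on both strands, was in none of the 7 listed promoters of Tfap2a, Tfap2b, Tfap2d and Tfap2e. It was in 16.6% of all promoters, in 25.8% of promoters of genes higher in palatal, in 23.9% of those lower and in 24.4% of those of genes tested and not called. These are matches of letters in a short window and were not tested.

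Tfap2b (ENSMUSG00000025927, chromosome 1) had 173, 141, 162, 137 and 137 CPM in palatal libraries 1 to 5, against 4.22, 5.42, 6.22, 4.25 and 4.63 CPM in buccal libraries 1 to 5. The lowest palatal library stood far above the highest buccal one, and neither side had a library apart from the rest. The means were 150 ± 16.7 CPM in palatal and 4.95 ± 0.860 CPM in buccal libraries (SD, n = 5 each), a log2 fold change of 4.92 ± 0.12 (SE). By log2 fold change Tfap2b ranked 20 from the highest among the 14062 tested genes. Its palatal level exceeded that of 92.8% of tested genes and its buccal level that of 30.8%. The buccal signal was low but measured, with 786 counts over the buccal libraries against 22624 over the palatal ones.

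Tfap2c (ENSMUSG00000028640, chromosome 2) had 90.7, 79.4, 77.8, 78.7 and 77.1 CPM in palatal libraries 1 to 5, against 49.0, 46.5, 42.2, 44.7 and 41.9 CPM in buccal libraries 1 to 5. The sides did not overlap, and palatal library 1 stood above the other 4 of its side. The means were 80.8 ± 5.65 CPM in palatal and 44.9 ± 2.99 CPM in buccal libraries (SD, n = 5 each), a log2 fold change of 0.85 ± 0.07 (SE).

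Tfap2a (ENSMUSG00000021359, chromosome 13), the AP-2 factor first described, had 156, 137, 136, 112 and 136 CPM in palatal libraries 1 to 5, against 163, 146, 136, 152 and 155 CPM in buccal libraries 1 to 5. The sides overlapped, and palatal library 4 was the lowest of all 10. The means were 135 ± 15.6 CPM in palatal and 150 ± 9.98 CPM in buccal libraries (SD, n = 5 each). The log2 fold change of Tfap2a was -0.15 ± 0.08 (SE), and the median over all tested genes was 0.0097. An antisense gene at the Tfap2a locus, Gm26688, named after its values were seen, had 0.586 ± 0.0670 CPM in palatal and 0.448 ± 0.0900 CPM in buccal libraries (SD, n = 5 each; edgeR adjusted p = 0.166). The libraries are stranded but the strand setting of the counting is not given in the sources used here, so reads of Gm26688 and Tfap2a may not be fully separated.

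Tfap2e (ENSMUSG00000042477, chromosome 4) had 5.60, 5.55, 5.50, 4.66 and 5.02 CPM in palatal libraries 1 to 5, against 4.86, 4.34, 2.93, 4.56 and 3.86 CPM in buccal libraries 1 to 5. The sides overlapped, and buccal library 3 was the lowest of all 10. The means were 5.27 ± 0.411 CPM in palatal and 4.11 ± 0.752 CPM in buccal libraries (SD, n = 5 each), a log2 fold change of 0.36 ± 0.13 (SE). Tfap2d (ENSMUSG00000042596, chromosome 1) had 1 count over the palatal libraries, in library 4, and 1 count over the buccal libraries, in library 1. It did not pass the low-count filter, which the other 4 members passed, and no fold is given for it.

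**Figure D1:**
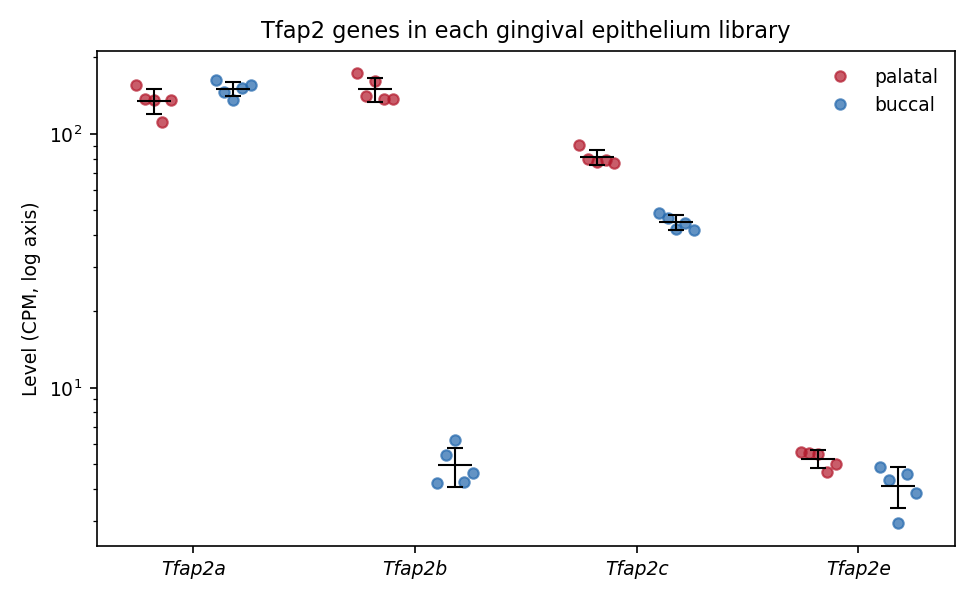
Levels of the 4 Tfap2 genes that passed the low-count filter, in CPM on a log axis, in 5 palatal (red) and 5 buccal (blue) libraries. Each point is a library, the dash is the mean and the bar is the SD. Tfap2b sits at 137 to 173 CPM in palatal and 4.22 to 6.22 CPM in buccal libraries, while the Tfap2a points of the sides overlap.

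Levels of different genes are compared here per kilobase of exon, with exon lengths from GENCODE vM21. In palatal epithelium 3 members shared most of the family's transcript. Tfap2a had 27.6 ± 3.18, Tfap2b 23.7 ± 2.64, Tfap2c 22.0 ± 1.54 and Tfap2e 2.53 ± 0.197 CPM per kilobase in palatal libraries (SD, n = 5). The palatal order of Tfap2a, Tfap2b and Tfap2c is not firm, since their ranges of 22.8 to 31.8, 21.6 to 27.4 and 21.0 to 24.7 CPM per kilobase overlap. In buccal epithelium the order per kilobase of exon was Tfap2a at 30.7 ± 2.04, Tfap2c at 12.2 ± 0.814, Tfap2e at 1.97 ± 0.361 and Tfap2b at 0.781 ± 0.136 CPM per kilobase (SD, n = 5). The buccal ranges of these 4 genes per kilobase of exon did not overlap. Per kilobase of coding sequence the last buccal ranks turned by mean, with Tfap2b at 3.06 to 4.52 and Tfap2e at 2.21 to 3.66 CPM. By that length Tfap2e stood above Tfap2b in buccal libraries 1 and 4 and below it in buccal libraries 2, 3 and 5. The buccal order of Tfap2b and Tfap2e is therefore not firm.

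As a share of the family's summed level per kilobase, Tfap2b made up 31.2% ± 1.44 in palatal and 1.73% ± 0.406 in buccal libraries (SD, n = 5 each). Tfap2a made up 36.4% ± 1.79 in palatal and 67.2% ± 1.38 in buccal libraries. The share of Tfap2c was 29.1% ± 1.46 in palatal and 26.7% ± 1.16 in buccal libraries, and the ranges of its share overlapped while those of its level did not. The summed level of the family was 75.7 ± 6.85 CPM per kilobase in palatal and 45.6 ± 2.79 CPM per kilobase in buccal libraries. Within each library the ratio of Tfap2b to Tfap2a per kilobase was 0.779 to 0.947 in palatal and 0.0201 to 0.0353 in buccal libraries. Per kilobase of coding sequence, Tfap2b was the first member in palatal libraries at 41.5% of the family, and Tfap2a made up 36.8%.

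**Figure D2:**
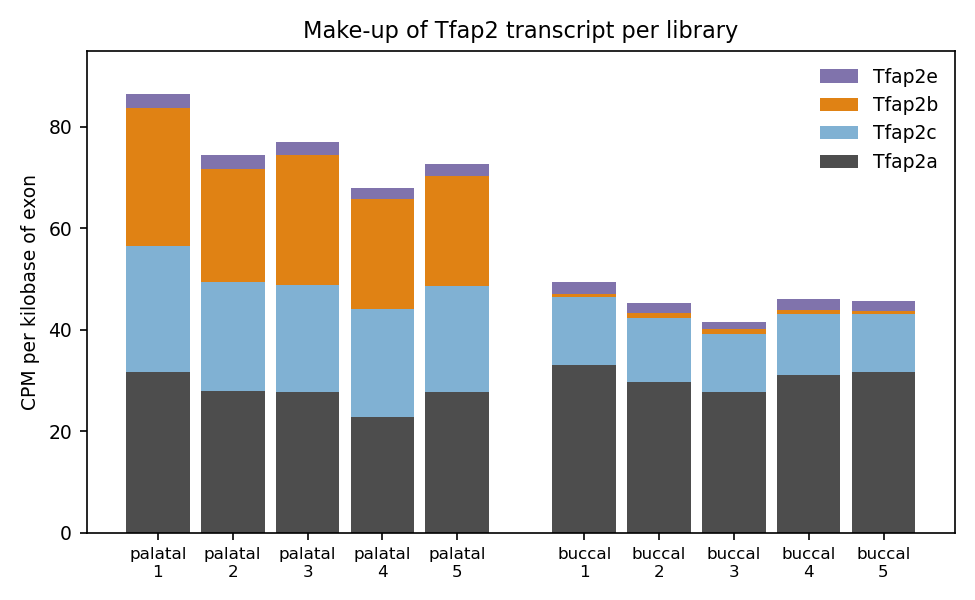
Stacked levels of Tfap2a, Tfap2c, Tfap2b and Tfap2e in CPM per kilobase of exon, 1 bar per library, with the 5 palatal libraries left of the 5 buccal ones. The bars reach 68.0 to 86.5 in palatal and 41.6 to 49.5 in buccal libraries, and the Tfap2b segment is wide in palatal libraries and thin in buccal ones.

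The longest run of bases shared by the annotated transcripts of a pair of members was 29, between Tfap2a and Tfap2b. The other 9 pairs shared runs of 13 to 22 bases, and reads were longer than this, per the labels' protocols.

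The genes beside each member were compared, as the 3 nearest protein-coding genes on each side in the RefSeq gene order. Tfap2b and Tfap2d lie next to each other and share their neighbours. None of these 6 genes passed the low-count filter: the defensin genes Defb41 and Defb18 and the fibrocystin gene Pkhd1 had 0 counts in all 10 libraries. The interleukin 17 genes Il17a and Il17f had 2 and 5 counts over the palatal libraries, against 6 and 12 over the buccal ones. Tfap2b, at 150 CPM in palatal libraries, stood between neighbours with almost no transcript on either side of the gum.

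Beside Tfap2c, Bmp7, the gene of a bone morphogenetic protein that signals in palate and tooth development, rose to 131 ± 11.8 CPM in palatal, against 32.2 ± 2.15 CPM in buccal libraries (SD, n = 5 each). Its log2 fold change was 2.03 ± 0.07 (SE; edgeR adjusted p = 5.78e-11). Rtf2, also near Tfap2c, had 78.2 ± 3.05 CPM in palatal and 79.7 ± 4.83 CPM in buccal libraries (edgeR adjusted p = 0.763). Beside Tfap2a, Ofcc1, a gene named for its place in an orofacial cleft region, fell by 1.20 ± 0.18 log2 units, and Gcnt2, which branches poly-lactosamine glycans, fell by 0.70 ± 0.12 (edgeR adjusted p = 8.45e-05 and 4.39e-04). Pak1ip1, on the far side of Gcnt2 from Tfap2a, was at 35.6 ± 1.29 CPM in palatal and 37.0 ± 1.83 CPM in buccal libraries (edgeR adjusted p = 0.496). Beside Tfap2e, 5730409E04Rik rose by 1.48 ± 0.17 log2 units, while the proteasome gene Psmb2 fell by 0.40 ± 0.06 and the replication checkpoint gene Clspn by 0.76 ± 0.15 (edgeR adjusted p = 8.25e-06, 7.20e-05 and 8.67e-04). Of the 24 distinct neighbours 15 were tested, and 9 passed, 4 higher and 5 lower, beside 38.9% of all tested genes. The median over the 15 was -0.03 log2 units, beside 0.0097 over all tested genes.

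Of 10 AP-2 co-regulators tested, 3 rose and the other 7 did not pass (median log2 fold change 0.07). Among all tested genes 38.9% passed in either direction, 18.7% of them higher and 20.3% lower as shares of all tested genes. With so few genes, nothing is read from the count. Kctd1 and Kctd15, whose proteins inhibit AP-2 activity, rose by 0.33 ± 0.06 and 0.41 ± 0.09 log2 units (edgeR adjusted p = 7.26e-04 and 0.00176). Kctd1 averaged 194 ± 10.5 CPM in palatal and 155 ± 8.03 CPM in buccal libraries (SD, n = 5 each). Cited4, of the CITED family of AP-2 co-activators, reached 67.2 ± 17.4 CPM in palatal, against 29.1 ± 9.76 CPM in buccal libraries, a log2 fold change of 1.21 ± 0.26 (edgeR adjusted p = 0.00453). For each of these 3 genes the palatal libraries lay above the buccal ones, as they did for 13.6% of all tested genes. The acetyltransferase gene Ep300, a co-activator, had 110 ± 9.89 CPM in palatal and 113 ± 9.05 CPM in buccal libraries. Npm1, a nucleolar chaperone and AP-2 co-repressor, had 532 ± 83.0 CPM in palatal and 527 ± 50.3 CPM in buccal libraries (edgeR adjusted p = 0.753 and 0.940).

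All 20 listed AP-2 target genes reported elsewhere were tested, and 4 rose and 3 fell (median log2 fold change -0.06). This is close to the background, in which 18.7% of all tested genes were higher and 20.3% lower. Krt14, a basal keratin gene, reached 9906 ± 1630 CPM in palatal, against 5109 ± 867 CPM in buccal libraries (SD, n = 5 each; log2 fold change 0.96 ± 0.13 SE, edgeR adjusted p = 5.20e-05). Krt5, its partner, had a log2 fold change of -0.06 ± 0.09 (edgeR adjusted p = 0.591). The receptor tyrosine kinase gene Kit rose to 8.84 ± 0.631 CPM in palatal, against 4.35 ± 0.894 CPM in buccal libraries, and the lipid carrier gene Apoe rose by 0.45 ± 0.07 log2 units (edgeR adjusted p = 1.92e-05 and 2.14e-04). Igfbp5, which binds insulin-like growth factors, fell to 35.3 ± 8.0 CPM in palatal, against 129 ± 18.5 CPM in buccal libraries, a log2 fold change of -1.87 ± 0.14 (edgeR adjusted p = 2.53e-07). The metallothionein gene Mt2 and the gelatinase gene Mmp2 fell by 0.50 ± 0.10 and 0.33 ± 0.07 (edgeR adjusted p = 0.00110 and 0.00206). The E-cadherin gene Cdh1 had 586 ± 15.3 CPM in palatal and 573 ± 31.6 CPM in buccal libraries (edgeR adjusted p = 0.721).

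All 17 listed regulators that work beside AP-2 in surface epithelium were tested, and 4 rose and 5 fell (median log2 fold change 0.03). Among all tested genes 18.7% were higher and 20.3% lower. Most of these regulators are transcription factors, but Esrp1 and Kdf1 are not. Zfp750 and Klf4, both of late keratinocyte differentiation, rose by 0.31 ± 0.06 and 0.61 ± 0.13 log2 units (edgeR adjusted p = 9.05e-04 and 0.00158), and the Klf4 libraries of the sides overlapped. Klf5, of proliferating epithelium, fell by 0.50 ± 0.08, the barrier factor gene Grhl3 by 0.33 ± 0.08, the epithelial ETS factor gene Elf3 by 1.09 ± 0.20 and Gata3 by 1.25 ± 0.25 (edgeR adjusted p from 1.71e-04 for Klf5 to 0.00367 for Grhl3). Gata3 was low, at 0.374 CPM in palatal and 0.897 CPM in buccal libraries. Trp63, the master gene of stratified epithelium, had 414 ± 56.3 CPM in palatal and 377 ± 43.2 CPM in buccal libraries. Esrp1, an epithelial splicing factor, had 485 ± 19.4 CPM in palatal and 467 ± 10.2 CPM in buccal libraries (edgeR adjusted p = 0.332 and 0.498).

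Of 21 listed transcription factors of neural crest and face, 10 were tested, and 5 rose and 1 fell (median log2 fold change 0.46), beside 18.7% higher and 20.3% lower among all tested genes. A gene could pass the low-count filter through the palatal side alone, so this split is a count over the tested genes, not over the list. The homeobox genes Msx2, Dlx6, Barx1 and Dlx5 rose by 3.74 ± 0.11, 5.45 ± 0.23, 4.29 ± 0.35 and 1.09 ± 0.09 log2 units (edgeR adjusted p = 6.25e-12, 2.48e-10, 2.50e-07 and 3.88e-07). Msx2 averaged 79.6 CPM in palatal and 5.95 CPM in buccal libraries. Dlx6 averaged 3.76 CPM in palatal and 0.0841 CPM in buccal libraries, and Barx1 1.06 CPM in palatal and 0.0489 CPM in buccal libraries. Dlx6 and Barx1 had only 13 and 8 counts over the buccal libraries, so the size of their folds rests on few counts. Dlx5 averaged 76.8 ± 9.55 CPM in palatal and 36.2 ± 3.99 CPM in buccal libraries (SD, n = 5 each). Pitx1, a homeobox gene of the first pharyngeal arch, had 390 ± 57.0 CPM in palatal and 397 ± 68.5 CPM in buccal libraries (edgeR adjusted p = 0.877). Pax3 rose by 0.62 ± 0.21 (edgeR adjusted p = 0.0289), a call lost without buccal library 1, 2 or 4 or palatal library 3 or 4 (edgeR adjusted p = 0.0591, 0.0584, 0.0637, 0.0718 and 0.0679), with no low-count filter (0.0934) and with DESeq2 (0.0831). Sox9 had 13.6 ± 1.62 CPM in palatal and 15.9 ± 2.53 CPM in buccal libraries (edgeR adjusted p = 0.132). The crest genes Foxd3, Hand1 and Hand2 had 0 counts in all 10 libraries, and Sox10 had 0 over the palatal and 6 over the buccal libraries.

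**Figure D3:**
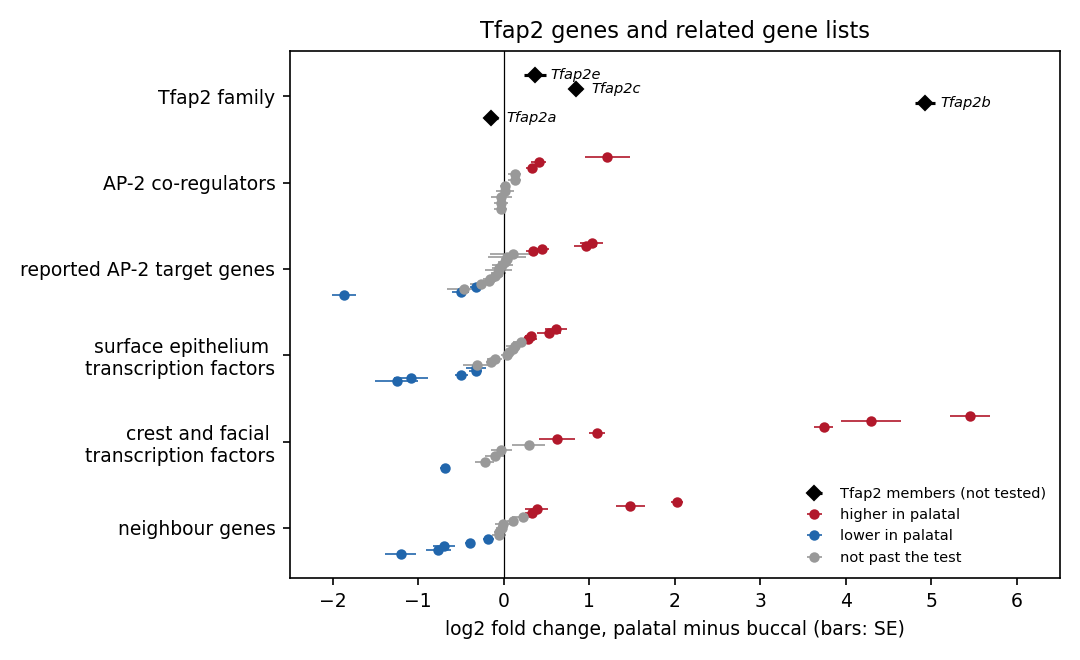
Log2 fold change, palatal minus buccal, with its standard error, for the Tfap2 genes (black, not tested) and for every tested gene of 5 related lists, coloured red where higher in palatal, blue where lower and grey where not past the test. Tfap2b is at 4.92, and Dlx6, Barx1 and Msx2 are at 5.45, 4.29 and 3.74. Dlx6 and Barx1 had only 13 and 8 counts over the buccal libraries. The family was chosen by this contrast and the lists with earlier results known, so nothing is read from how near the points lie.

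Tfap2b and several of these genes are also known outside keratinocytes, so markers of other cells are given beside them. The counts of markers called stand beside 18.7% higher and 20.3% lower among all tested genes. Of 10 keratinocyte markers 5 rose (Krt10, Krt14, Krt15, Ivl and Dsp) and 2 fell (Krt4 and Krt13). Their summed level was 89161 to 98793 CPM in palatal and 129826 to 148679 CPM in buccal libraries. Krt4, a keratin gene of moist oral lining, was at 13853 CPM in palatal and 57984 CPM in buccal libraries, and its partner Krt13 at 34511 CPM in palatal and 58477 CPM in buccal libraries. Of 7 melanocyte markers Tyrp1 had 0 counts and only Mitf was tested, at an edgeR adjusted p of 0.306. Their summed level was 1.20 to 1.85 CPM in palatal and 0.806 to 1.71 CPM in buccal libraries. Of 7 fibroblast markers 5 were tested, and 1 rose and 1 fell. Their summed level was 78.4 to 97.4 CPM in palatal and 38.0 to 59.0 CPM in buccal libraries. The proteoglycan gene Dcn was at 73.3 CPM in palatal and 6.61 CPM in buccal libraries, and the intermediate filament gene Vim at 8.50 CPM in palatal and 32.7 CPM in buccal libraries. The collagen genes Col1a1, Col1a2 and Col3a1 were at 1.12 to 1.48 CPM in palatal and 0.943 to 1.87 CPM in buccal libraries. Of 5 Merkel cell markers 4 were tested, and 3 rose and 1 fell, and their summed level was 87.3 to 100.5 CPM in palatal and 86.8 to 109.6 CPM in buccal libraries, most of it from Sox2 at 84.9 CPM in palatal and 97.8 CPM in buccal libraries. The LIM homeobox gene Isl1 rose to 5.77 CPM in palatal, against 0.0730 CPM in buccal libraries (edgeR adjusted p = 9.55e-10). The Merkel cell determinant gene Atoh1 rose to 0.686 CPM in palatal, against 0.116 CPM in buccal libraries, and the mechanosensory channel gene Piezo2 to 2.17 CPM, against 0.254 CPM (edgeR adjusted p = 3.35e-05 and 1.17e-06). Isl1, Atoh1 and Piezo2 had only 12, 19 and 41 counts over the buccal libraries. They could pass the low-count filter through the palatal side alone, so nothing is read from the split of the tested Merkel cell markers. Of 7 minor gland markers Smr3a had 0 counts and only Muc5b was tested, at 25.6 CPM in palatal and 2.85 CPM in buccal libraries (edgeR adjusted p = 0.0541). Their summed level was 2.91 to 60.6 CPM in palatal and 0.160 to 9.88 CPM in buccal libraries. Of 7 leukocyte markers 6 fell, where 20.3% of all tested genes did, and their sum was 45.9 to 70.7 CPM in palatal and 138 to 251 CPM in buccal libraries. Of 6 Schwann cell markers 3 were tested, among them Ngfr and Mbp (edgeR adjusted p = 0.154 and 0.244), and the summed level was 45.2 to 60.4 CPM in palatal and 49.0 to 58.4 CPM in buccal libraries. Of 5 endothelial markers only Pecam1 was tested (edgeR adjusted p = 0.947), and the sum was 2.36 to 7.29 CPM in palatal and 3.38 to 6.86 CPM in buccal libraries. The part of these cell types in the Tfap2 values was not tested.

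Within a side, Tfap2a, Tfap2c and Tfap2e varied together across libraries, and r between Tfap2b and Tfap2a or Tfap2c was near 0. After subtracting each side's mean of log2 CPM, Pearson's r over the 10 libraries was 0.59 for Tfap2a with Tfap2c, 0.65 for Tfap2a with Tfap2e and 0.63 for Tfap2c with Tfap2e. It was -0.04 for Tfap2b with Tfap2a, 0.03 with Tfap2c and -0.50 with Tfap2e. These are descriptions over few libraries that share their scaling, with no test.

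Among 11571 named genes with a mean of at least 1 CPM, those most like Tfap2b over the 10 libraries were the suprabasal keratin gene Krt76, the cornulin gene Crnn and the palmoplantar keratin gene Krt9 (r = 0.999, 0.998 and 0.998). Over all 10 libraries r includes the gap between the sides. The genes named here and in the next paragraph have the highest of 11571 values of r over few libraries. Values this high can arise by chance in such a search, and none was tested. With each side's mean subtracted, the genes most like Tfap2b were instead Vldlr, Pygo1, whose protein binds the Wnt co-activator Bcl9, and S100pbp (r = 0.920, 0.898 and 0.894). Vldlr had 40.3 ± 1.10 CPM in palatal and 27.9 ± 2.18 CPM in buccal libraries, and Pygo1 had 6.34 ± 0.793 CPM in palatal and 3.56 ± 0.373 CPM in buccal libraries (SD, n = 5 each). For Tfap2c the genes most alike over 10 libraries were the aminopeptidase N gene Anpep, Letmd1 and the ciliary gene Cys1 (r = 0.993, 0.991 and 0.990). Within sides they were Nadsyn1, the spindle gene Spag5 and Cnp (r = 0.935, 0.935 and 0.932).

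For Tfap2a, the dynein light chain gene Dynlt1c came first over 10 libraries and within sides (r = 0.978 and 0.970). It was followed over 10 libraries by Als2cl and Dlat (r = 0.945 and 0.944), and within sides by Flywch1 and Zmiz2 (r = 0.967 and 0.951). For Tfap2e, the presenilin gene Psen2 and the chromogranin A gene Chga, a marker of neuroendocrine cells, were among the first 3 both ways (r = 0.977 and 0.962 over 10 libraries, and 0.956 and 0.946 within sides). The other gene was Ppp1r10 over 10 libraries (r = 0.932) and Pidd1 within sides (r = 0.957). Psen2 had 3.80 ± 0.647 CPM in palatal and 2.45 ± 0.628 CPM in buccal libraries (SD, n = 5 each).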

How the data were processed

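Libraries were grouped by the tissue label into 5 palatal and 5 buccal ones. The deposited table holds a raw count per gene and library made by the authors, and, per the file headers, DESeq2-normalized values, a signal in which every count of a library is scaled by its size factor, and which was not used for tests. The build GRCm39 and the tools HTSeq 2.01, TopHat2 2.1.1, DESeq2 1.36.0 and cutadapt 2.10 appear in the submitters' processing notes, with no roles. Of 55414 genes 6250 were blank in every library and left out, and 0 columns belonged to other samples.

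Genes were kept by filterByExpr (minimum count 10), scaled by TMM and compared in edgeR by a two-sided quasi-likelihood test (robust setting), with p-values adjusted by Benjamini-Hochberg over all tested genes and a threshold of 0.05 (edgeR 4.0.16, limma 3.58.1, DESeq2 1.42.0, R 4.3.3). The fit was also run on simulated data, and the outcome is not reported here. CPM uses TMM-scaled library sizes, and log2 CPM a prior count of 2. Standard errors were derived from each log2 fold change and its F statistic. Total counts were 25868777 to 37234192 per library. Libraries of a side differed by more than sampling noise (per degree of freedom, chi-square was 8.35 to 64.9). Counting error does not cover PCR duplicates, and the labels mention no molecular identifiers.

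The members and lists were chosen with earlier results of these data known. By rule the text names, per list, up to 6 genes past the threshold with the smallest p and up to 2 abundant ones not past it, and per tested member the 3 genes with the highest r over the 10 libraries and within sides, among named genes of at least 1 CPM. Other genes were named after their values were seen, and a few that the rule names are not reported here. Alternatives were RLE scaling, no filter, at least 1 CPM in 5 libraries, DESeq2, limma-voom, leaving out each library, a block for the replicate number, coding length, and a palindrome spacer longer by 1 base. Promoters, gene order and lengths come from GRCm38 tables, of another build than the counts, by symbol or identifier. Promoters of 4 of the 5 members matched.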

Additional observations from a re-analysis of the deposited data

Results flagged for a closer look

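The highest and lowest of 5 libraries were compared with the rest of their side for 4 Tfap2 genes and the genes named beside them, 126 groups in all. In 9 groups 1 library stood apart by more than the critical gap of 0.71 of the range, where chance gives about 1 in 20. Among the family, Tfap2c in palatal library 1 was the one, at 90.7 CPM with the next at 79.4 CPM. Palatal library 1 was also the highest for Dlx5 at 93.6 CPM (next 75.2) and Nadsyn1 at 2.68 CPM (next 2.09), and the lowest for Ofcc1 at 0.629 CPM (next 0.959). Igfbp5 was highest in palatal library 5 at 49.0 CPM (next 34.9), 5730409E04Rik lowest in palatal library 4 at 5.38 CPM (next 5.77), and Crnn lowest in palatal library 2 at 4747 CPM (next 5953). On the buccal side, Dlx6 was highest in library 4 at 0.173 CPM (next 0.0657) and Gcnt2 highest in library 3 at 29.6 CPM (next 24.2). Without palatal library 1 the log2 fold change of Tfap2c was 0.81, and with all libraries 0.85.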

How the results depend on the processing

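The number of genes past the threshold was 5469 with RLE scaling, 5679 with no filter, 4902 with at least 1 CPM in 5 libraries, 5952 with DESeq2, 5443 with limma-voom, 5518 with the replicate number as a block, and 4916 to 5399 when a library was left out. Over all these fits Tfap2b stayed at 4.87 to 5.02 and Tfap2c at 0.81 to 0.89, Tfap2a ranged from -0.21 to -0.09 and Tfap2e from 0.27 to 0.43 log2 units. The count of each of the 5 lists stayed within 1.5 times its main value. Same-numbered libraries correlated at -0.0226 to 0.328 in their deviations, so the numbers were not taken as pairs, and only palatal libraries 1 and 4 correlated best with their own number. The block changed no call of a named gene.

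Family shares depended on the length used: with coding length Tfap2b made up 41.5% in palatal and 2.53% in buccal, Tfap2c 20.1% in palatal and 20.3% in buccal, Tfap2e 1.52% in palatal and 2.15% in buccal, and Tfap2a 75.0% in buccal libraries. With a spacer longer by 1 base the palindrome was in 14.8% of all promoters, in 24.7% of those of genes higher in palatal, in 21.1% of those of genes lower in palatal and 23.1% of those not called, and in 1 of 7 member promoters. Of 58 named genes, 48 kept their direction and side of the threshold in every alternative that tested them. Gata3, Barx1 and Pax3 were not tested with the filter of at least 1 CPM in 5 libraries. Direction turned only for genes not past the test: with a library left out, Npm1 ranged from -0.073 to 0.075, Ep300 from -0.076 to 0.0027, Pitx1 from -0.099 to 0.045, Rtf2 from -0.048 to 0.0074, Flywch1 from -0.10 to 0.011, Zmiz2 from -0.040 to 0.094 and Nadsyn1 from -0.035 to 0.14, and Zmiz2 was -0.0011 with limma-voom. The cause was not tested. Tfap2d, at 1 count per side, was too low for the sides to be compared.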
